A study of Homo sapiens with 3 samples.

Results

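The genes described here are 10 that encode integrins and proteins of focal adhesions: the beta subunit genes ITGB1, ITGB4 and ITGB5, the alpha subunit genes ITGA2, ITGA3, ITGA6 and ITGAV, and TNS3, VCL and ZYX, whose products join integrins to actin. They were taken by symbol from the 19912 features of the deposited count matrices, and all 10 were found. Single-cell RNA was measured in HCT116, a line from a human colorectal carcinoma, labelled in its nuclei with H2B-GFP and grown in an organ-on-chip, a microfluidic culture device with a top and a bottom channel. The labels give 3 groups: cells of the stretched bottom channel, taken as invaded, after 6 days of peristaltic stretch; cells of the stretched top channel, taken as not invaded; and cells of the top channel of chips without stretch, also not invaded. All 3 groups share the line, the label, the release with trypsin and the sort on GFP. With 1 library per group, differences have no replicate check and conditions could not be tested against each other. Intervals are 95% intervals of counting error only, and they treat UMIs (molecular identifiers, 1 per captured transcript) as independent.

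Integrins are receptors built of 1 alpha and 1 beta chain that bind extracellular matrix outside the cell and, through adaptor proteins, the cytoskeleton inside it. The beta-1 chain pairs with many alpha chains to bind collagens and laminins, while the beta-4 chain pairs only with alpha-6 and anchors epithelia to laminin in hemidesmosomes, which tie to keratin filaments rather than to actin. At focal adhesions, talin, vinculin, zyxin and tensins link clustered integrins to actin, and their assembly responds to mechanical tension.

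After filtering, the stretched bottom library held 1951 cells, the stretched top library 20121 and the not stretched top library 17206, with medians of 40387, 9384 and 10964 UMIs per cell. The median mitochondrial share of UMIs was 4.09% in the stretched bottom, 10.4% in stretched top and 9.64% in not stretched top cells. Cells of over 40000 UMIs held 78.7% of stretched bottom UMIs, 0.266% of stretched top UMIs and 2.23% of not stretched top UMIs. Kept cells of different libraries shared between 6 and 88 barcodes. The label of an epithelial line was checked on 12 epithelial markers: 9 reached 10 CPM (UMIs of a gene, scaled to a common total per library) in every library, with KRT19 the highest. EPCAM, the epithelial adhesion molecule, stood at 501 CPM in the stretched bottom, 389 CPM in the stretched top and 386 CPM in the not stretched top library. Not all markers followed it. In stretched bottom against stretched top, 3 of the 9 were at least 1.5-fold lower and 0 higher, beside 11% and 7.93% of all genes. ELF3, of the same list, stood at 24.9, 72.3 and 92.5 CPM in the stretched bottom, stretched top and not stretched top library. Markers of other cells were low. Fibroblast markers, led by COL1A1, summed to between 9.72 and 16.2 CPM, and leukocyte markers, led by CD68 or LYZ, to between 5.47 and 7.38 CPM. Of 12 endothelial markers EGFL7 alone reached 10 CPM, at between 101 and 123 CPM. The other 11 summed to 11.1 CPM in the stretched bottom, 4.30 CPM in the stretched top and 5.47 CPM in the not stretched top library.

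Pooled over kept cells, ITGB1 held a larger share of UMIs in the stretched bottom than in the stretched top library. ITGB4, ITGB5 and TNS3 held a smaller share. Across the 10 genes, 1 was at least 1.5-fold higher in the stretched bottom than in the stretched top library, beside 7.93% of the 8870 genes that reached 10 CPM in 1 of these libraries (ratios are taken with 1 CPM added). Another 3 were at least 1.5-fold lower, beside 11% of those genes. The 10 genes had a median log2 ratio of −0.38, and all measured genes a median of −0.00. A share of UMIs is a relative level, so fewer molecules of 1 gene and more of the others cannot be told apart. All 4 genes changed sign in at least 1 bin of cell depth, and ITGB4 and ITGB5 also between bins of mitochondrial share, given further on. Of the 4 depth bins with a ratio, ITGB4 passed 1.5-fold in 0, and ITGB1 and TNS3 in 2 each. ITGB5 passed in 1, that of 5000 to 10000 UMIs, where it was higher in the stretched bottom library. Its interval there (0.905 to 2.51) held a ratio of 1. The TNS3 bin of 1000 to 5000 UMIs rested on 5 stretched bottom UMIs, and its interval (0.135 to 1.004) held a ratio of 1 as well.

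**Figure D1:**
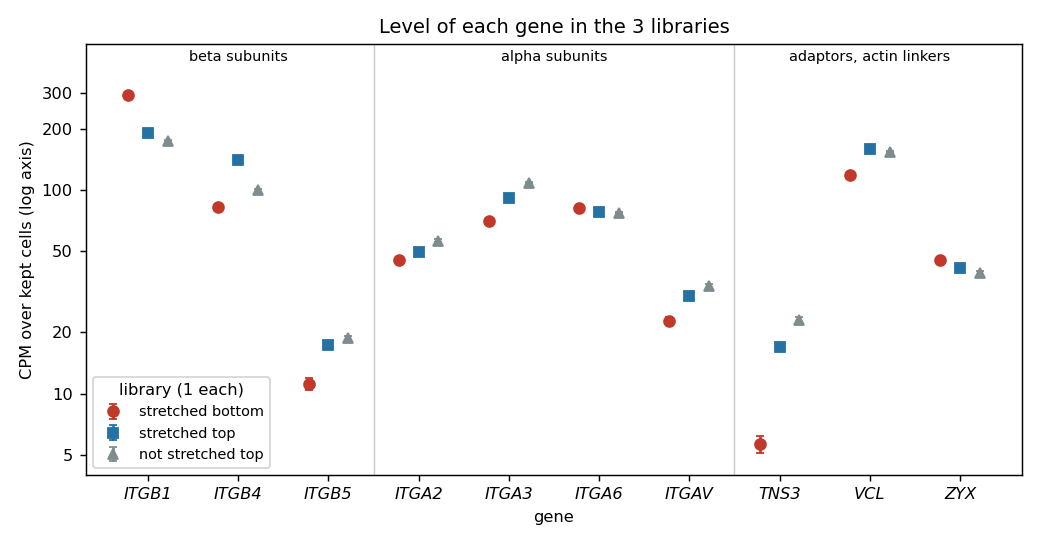
CPM of each gene over the kept cells (log axis) in the stretched bottom (circles), stretched top (squares) and not stretched top library (triangles), 1 library each, with exact Poisson 95% intervals that cover counting error only. ITGB1 was highest in the stretched bottom library at 291 CPM, TNS3 lowest there at 5.65 CPM, and ITGB4 highest in the stretched top library at 141 CPM.

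Among the beta subunits, ITGB1 (ENSG00000150093, chromosome 10, 32900319 to 33005792, minus strand, hg38) encodes the common partner of the collagen and laminin receptors. It stood at 291 CPM in the stretched bottom, 190 CPM in the stretched top and 175 CPM in the not stretched top library. The stretched bottom library thus lay apart from both top libraries, which lay close together. ITGB1 was 1.53-fold higher in the stretched bottom than in the stretched top library (1.503 to 1.55), a log2 ratio above that of 92.9% of measured genes. Over 16 other ways of processing, its log2 ratio lay between 0.45 and 0.68. It stayed past 1.5-fold in 12 of them and fell short with the stricter cell filter, with mitochondrial and ribosomal protein genes left out of the totals, with equal weight per cell, and in cells of at most 5% mitochondrial UMIs.

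ITGB4 (ENSG00000132470, chromosome 17, 75721328 to 75757818, plus strand), the hemidesmosome beta chain, stood at 82.1 CPM in the stretched bottom, 141 CPM in the stretched top and 99.4 CPM in the not stretched top library. Its highest level was therefore in the stretched top library, with the stretched bottom and not stretched top libraries below it. It was 1.71-fold lower in the stretched bottom than in the stretched top library (1.67 to 1.76), and the log2 ratio lay between −0.90 and −0.51 over the alternatives. Equal cell weights and cells of 10000 to 60000 UMIs left it short of 1.5-fold. ITGB5 (ENSG00000082781, chromosome 3, 124761948 to 124901418, minus strand), which pairs with the alpha-V chain to bind vitronectin, stood at 11.2 CPM in the stretched bottom, 17.3 CPM in the stretched top and 18.7 CPM in the not stretched top library. It was 1.55-fold lower in the stretched bottom than in the stretched top library (1.44 to 1.68). This value lies close to the threshold: it passed in 7 of 16 alternatives, with log2 ratios between −0.73 and −0.32.

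The 4 alpha subunit genes held 0 members past 1.5-fold in stretched bottom against stretched top, beside 18.9% of all genes in either direction. ITGA3 (chromosome 17, 50055968 to 50090481), the laminin-receptor chain that pairs with beta-1, stood at 70.002 CPM in the stretched bottom, 91.4 CPM in the stretched top and 108 CPM in the not stretched top library. ITGAV (chromosome 2, 186590065 to 186680901), which pairs with several beta chains to bind RGD motifs, stood at 22.7 CPM in the stretched bottom, 30.1 CPM in the stretched top and 33.9 CPM in the not stretched top library. Both genes followed the same order, lowest in the stretched bottom library, at 1.31-fold (1.27 to 1.35) and 1.32-fold (1.254 to 1.39) below the stretched top library. ITGA2 (chromosome 5, 52989326 to 53094779), the collagen-receptor chain, stood at 45.3 CPM in the stretched bottom, 49.8 CPM in the stretched top and 56.2 CPM in the not stretched top library. The laminin-receptor gene ITGA6 (chromosome 2, 172427354 to 172506282), partner of both beta-1 and beta-4, stood at 81.5 CPM in the stretched bottom, 78.2 CPM in the stretched top and 77.0 CPM in the not stretched top library. For these 2 genes the sign of stretched bottom against stretched top depended on the processing. The log2 ratio of ITGA2 lay between −0.27 and 0.09 over the alternatives and that of ITGA6 between −0.15 and 0.15.

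ITGA6 lay at similar levels in all 3 libraries, while its beta partners differed relative to it. There were 1.01 ITGB4 UMIs per ITGA6 UMI in the stretched bottom, 1.80 in stretched top and 1.29 in not stretched top cells. For ITGB1 the same count was 3.57 in the stretched bottom, 2.44 in stretched top and 2.27 in not stretched top cells. Per ITGB4 UMI, the stretched bottom library held 3.54 ITGB1 UMIs, the stretched top 1.35 and the not stretched top 1.76. The ITGB1 to ITGB4 ratio was thus 2.61 times as large in the stretched bottom as in the stretched top library (2.53 to 2.70), and 0.772 times as large in the stretched top as in the not stretched top library (0.754 to 0.789). These 2 ratios need no scaling to the library total, but they pool cells of unlike depth and mitochondrial share. Their intervals are normal ones on the log scale. In cells of 1000 to 5000 UMIs, ITGB1 and ITGB4 had similar counts in both libraries: 104 and 102 UMIs in the stretched bottom, 1770 and 1785 in the stretched top. In cells of 20000 to 40000 UMIs the counts were 4047 and 1269, against 6876 and 4330. The part of depth and mitochondrial share in the pooled change was not tested. Over all kept cells, ITGB5 per ITGAV UMI moved less, at 0.491 in the stretched bottom, 0.577 in stretched top and 0.551 in not stretched top cells. ITGA2 per ITGA3 UMI stood at 0.647, 0.544 and 0.520 in the same order. UMI ratios between genes of different transcripts describe libraries, not protein pairs.

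TNS3 (ENSG00000136205, chromosome 7, 47275154 to 47582558, minus strand) encodes tensin-3, an adaptor that binds beta integrin tails and actin. It had the lowest log2 ratio of the 10 genes. TNS3 stood at 5.65 CPM in the stretched bottom library (433 UMIs), 17.0 CPM in the stretched top (3590 UMIs) and 23.1 CPM in the not stretched top library (4903 UMIs). The stretched bottom level was 3.01-fold lower than the stretched top level (2.73 to 3.34), below all but 1.45% of measured genes, and 4.08-fold lower than the not stretched top level (3.70 to 4.52). It stayed at least 1.5-fold lower than the stretched top level in 16 of 16 alternatives, with log2 ratios between −1.57 and −1.03. In the stretched bottom library 273 cells held a TNS3 UMI, and 1 of them held 32 UMIs, without which the level was 5.23 CPM. The other 2 genes of the actin link were nearer to the rest. VCL (chromosome 10, 73995193 to 74121363), which encodes vinculin, stood at 119 CPM in the stretched bottom, 159 CPM in the stretched top and 154 CPM in the not stretched top library, 1.34-fold lower in the stretched bottom than in the stretched top (1.31 to 1.37). ZYX (chromosome 7, 143381080 to 143391111), which encodes the tension-responsive LIM protein zyxin, stood at 45.5 CPM in the stretched bottom, 41.2 CPM in the stretched top and 39.3 CPM in the not stretched top library. By GENCODE 29, other genes of the files on the same strand covered 0% of the last 1000 exonic bases of each of the 10.

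**Figure D2:**
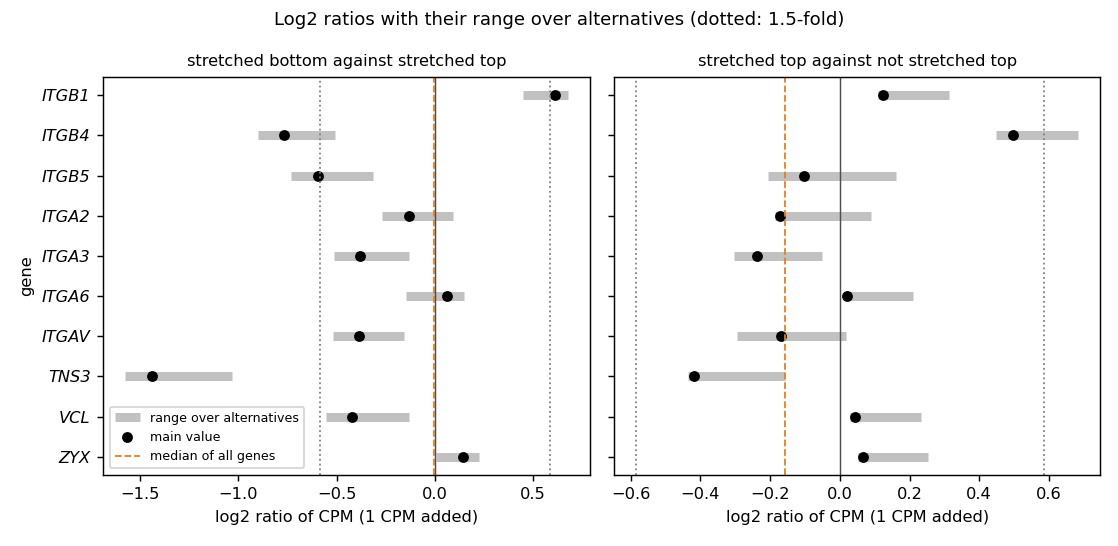
Log2 ratio of CPM (1 CPM added) of each gene in stretched bottom against stretched top (left) and stretched top against not stretched top (right); points are the reported values, grey bars the range over the alternatives, dotted lines 1.5-fold and the dashed line the median of all genes. TNS3 lies below the lower dotted line over its whole range in the left panel, and ITGB4 crosses the upper one in the right panel under 2 scalings.

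The 250 bases before the RefSeq gene starts of ITGB1 and TNS3, the genes at the upper and lower ends of the range, are given 5′ to 3′ (GRCh38.p14, minus strand, chr10:32958231-32958480 and chr7:47582587-47582836). Capitals mark matches on either strand to GGAATG, the core bound by TEAD factors, or to GGGCGG, the GC box bound by SP1-type factors.
ITGB1: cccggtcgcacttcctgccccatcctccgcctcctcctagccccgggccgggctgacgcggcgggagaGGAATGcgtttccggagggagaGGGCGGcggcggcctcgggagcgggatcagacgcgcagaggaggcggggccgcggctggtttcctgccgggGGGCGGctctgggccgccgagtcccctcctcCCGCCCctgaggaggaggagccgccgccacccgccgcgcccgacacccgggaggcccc
TNS3: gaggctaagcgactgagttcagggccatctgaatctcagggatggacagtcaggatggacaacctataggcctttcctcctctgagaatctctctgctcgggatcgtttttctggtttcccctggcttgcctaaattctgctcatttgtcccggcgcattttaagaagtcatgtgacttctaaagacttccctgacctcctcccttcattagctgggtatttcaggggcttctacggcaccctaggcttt
Windows of 300 bases (250 before and 50 after the start) were in the RefSeq table for 8 of the 10 genes, all but ITGB4 and ITGA3. For each gene 1 RefSeq start was used, which can differ from the outer end of the GENCODE 29 span given above. The ITGB1 window, 32958181 to 32958480, lies inside the span that ends at 33005792. The VCL window begins at 73997866, inside the span that begins at 73995193. GC content was 78.3% in the ITGB1 window and 51.7% in the TNS3 window, beside a median of 58.7% over 35116 promoters. GGAATG matched in 2 of 8 windows (ITGB1 and VCL), beside 14.0% of all promoters, and GGGCGG in 6 of 8, beside 45.0%. The AP-1 motif TGANTCA matched in 0 of 8 (7.71% of all), the SRF-bound CArG box in 0 of 8 (1.29%) and the E2 box CAGGTG in 1 of 8, ITGA6 (20.6%). Both strands were searched and no matches overlapped. A match describes letters, not a bound site.

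In the stretched top against the not stretched top library, the comparison that sets stretch against no stretch in the same channel, all 10 genes lay within 1.5-fold. Of 9119 measured genes 0.175% were past 1.5-fold higher and 0.592% lower, 0.768% in all. ITGB4 lay nearest to the threshold, 1.41-fold higher with stretch (1.39 to 1.44), and its log2 ratio of 0.50 was above that of 99.7% of measured genes. The median gene had a log2 ratio of −0.16 in this comparison, so ITGB4 stood 0.65 above it. Under TMM and median of ratios scaling, which centre the median gene near 0, ITGB4 passed 1.5-fold, with log2 ratios of 0.67 and 0.68. TNS3 lay at the other end, 1.35-fold lower with stretch (1.30 to 1.42), below all but 4.35% of genes. ITGB1 was 1.09-fold higher (1.08 to 1.11) and ITGA3 1.18-fold lower (1.16 to 1.205). ITGB5, ITGA2 and ITGAV were between 1.08-fold and 1.13-fold lower, and their sign turned under both of these scalings. ITGA6, VCL and ZYX were between 1.01-fold and 1.05-fold higher, and the interval of ITGA6 (0.993 to 1.04) held a ratio of 1.

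Set against the not stretched top library, the stretched bottom library again had 1 of 10 genes at least 1.5-fold higher, ITGB1 at 1.67-fold (1.64 to 1.69), beside 6.8% of 9218 genes. It had 3 lower, beside 20.7% of genes (27.5% in either direction): TNS3, ITGB5 at 1.67-fold (1.55 to 1.80) and ITGA3 at 1.54-fold (1.499 to 1.59). ITGB1 and TNS3 passed in 16 of 16 alternatives, but ITGB5 in 9 and ITGA3 in 7, and both of these calls were lost under TMM and median of ratios scaling. ITGB4 was 1.21-fold lower (1.18 to 1.245) here. The 3 comparisons share libraries, so their values are set side by side only.

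The share of cells with at least 1 UMI follows depth, so each cell was thinned to 3000 UMIs, which left out 242 stretched bottom, 1205 stretched top and 1507 not stretched top cells. ITGB1 was then found in 55.1% of stretched bottom cells (52.7 to 57.5), 42.5% of stretched top cells (41.8 to 43.2) and 39.9% of not stretched top cells (39.1 to 40.7). ITGB4 was found in 22.4% of stretched bottom (20.5 to 24.5), 31.99% of stretched top (31.3 to 32.7) and 24.8% of not stretched top cells (24.2 to 25.5). Both genes kept the order of their summed levels. TNS3 was found in 2.11% of stretched bottom (1.48 to 2.90), 4.75% of stretched top (4.45 to 5.07) and 6.27% of not stretched top cells (5.90 to 6.66). Without thinning the TNS3 shares were 14.0%, 13.7% and 19.6%. At 3000 UMIs, 3 of the 10 genes had a higher share in stretched bottom than in stretched top cells, and without thinning 10 of 10 had. As a rough gauge of free RNA in the top libraries, APOA1 was found in 1.72% of stretched top and 2.04% of not stretched top cells outside a small APOA1-high class, at the same thinned depth. Some cells outside the class may hold APOA1 of their own. On the score of the class, 94 kept stretched top and 128 kept not stretched top cells lay between 500 and 1000 CPM. APOA1 stood at 108 CPM in the stretched top and 139 CPM in the not stretched top library, against 17.0 and 23.1 CPM for TNS3. Its shares therefore cannot be set against those of TNS3. The stretched bottom library held 0 cells of that class, so its APOA1 share of 0.176% gives no measure of free RNA there. The part of free RNA in the low shares was not tested.

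**Figure D3:**
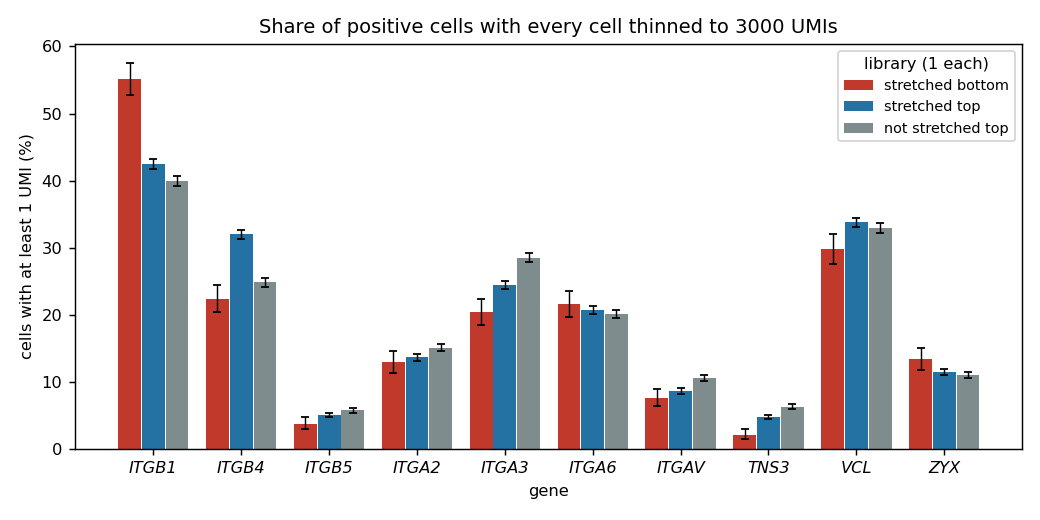
Share of cells (%) with at least 1 UMI of each gene in the stretched bottom, stretched top and not stretched top library (left to right in each group), every cell thinned to 3000 UMIs; error bars are Clopper-Pearson 95% intervals. ITGB1 stands highest in the stretched bottom library at 55.1%, and ITGB4 highest in the stretched top library at 31.99%.

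TNS3 was uneven between cells of the top channels. Its squared coefficient of variation beyond Poisson counting was 1.77 in stretched top and 2.55 in not stretched top cells at 3000 UMIs, whereas that of ITGB1 was 0.185 and 0.216. ITGA2, at 1.13 and 1.27, and ITGB4, at 1.04 and 1.34, lay between them. In the stretched bottom library 36 of 1709 thinned cells held a TNS3 UMI, too few to give this value. Part of the TNS3 signal of the top channels lay in a class of cells whose summed level of 7 genes including APOA1 reached 1000 CPM. The class held 0 of 1951 stretched bottom cells, a count that allows up to 0.154%, 444 stretched top cells (2.21%) and 441 not stretched top cells (2.56%). It is a range of a score and not a cell type: 94 further stretched top cells and 128 not stretched top cells lay between 500 and 1000 CPM. TNS3 was 6.10-fold higher in these cells than in the other stretched top cells (90.6 against 14.8 CPM; 5.56 to 6.69) and 5.97-fold higher in the not stretched top library (119 against 19.9 CPM). ITGB5 was 1.88-fold and 2.21-fold higher in them, and ITGAV 1.76-fold and 1.77-fold higher. ITGA3 was 2.13-fold and 2.60-fold lower, and ITGB4 1.94-fold and 1.82-fold lower, in the stretched top and not stretched top library in that order. Without the class, the log2 ratio of TNS3 in stretched bottom against stretched top was −1.253, and that of ITGB5 was −0.56, short of 1.5-fold.

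By called cycle phase, the stretched bottom library had 49.3% of cells in G2/M and 25.3% in G1, against 30.2% and 53.2% in the stretched top and 27.8% and 53.5% in the not stretched top library. The part of free RNA in these calls was not tested. Within each of the 3 phases TNS3 stayed at least 1.5-fold lower in the stretched bottom than in the stretched top library, with log2 ratios between −1.54 and −1.27. ITGB1 was higher and ITGB4 and ITGB5 were lower in 3 of 3 phases and past 1.5-fold in 2. ITGB4 was also higher in stretched top than in not stretched top cells in each phase, with log2 ratios between 0.43 and 0.57.

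Some of these genes differed between cells of different called phase. G1 cells were also shallower than G2/M cells. Their median UMIs were 38614 against 47320 in the stretched bottom, 8086 against 12290 in the stretched top and 9629.5 against 14866 in the not stretched top library. Depth was not held fixed in the values that follow, and its part in them was not tested. ITGB4 stood at 115 CPM in G1 and 74.4 CPM in G2/M cells of the stretched bottom, at 170 and 113 CPM in the stretched top, and at 126 and 76.7 CPM in the not stretched top library. It was thus between 1.502-fold and 1.65-fold higher in G1 than in G2/M cells in 3 of 3 libraries. ITGA3 was between 1.35-fold and 1.68-fold higher in G1 cells, and ITGA2 between 1.246-fold and 1.45-fold. ITGB1 differed by at most 1.07-fold between G1 and G2/M cells, and was lowest in S cells of the stretched bottom library at 273 CPM. With 1 CPM added, 2 of 10 were at least 1.5-fold higher in G1 cells in the stretched bottom (5.9% of all genes), 0 in the stretched top (2.67%), where ITGB4 fell just short, and 2 in the not stretched top library (4.79%).

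**Figure D4:**
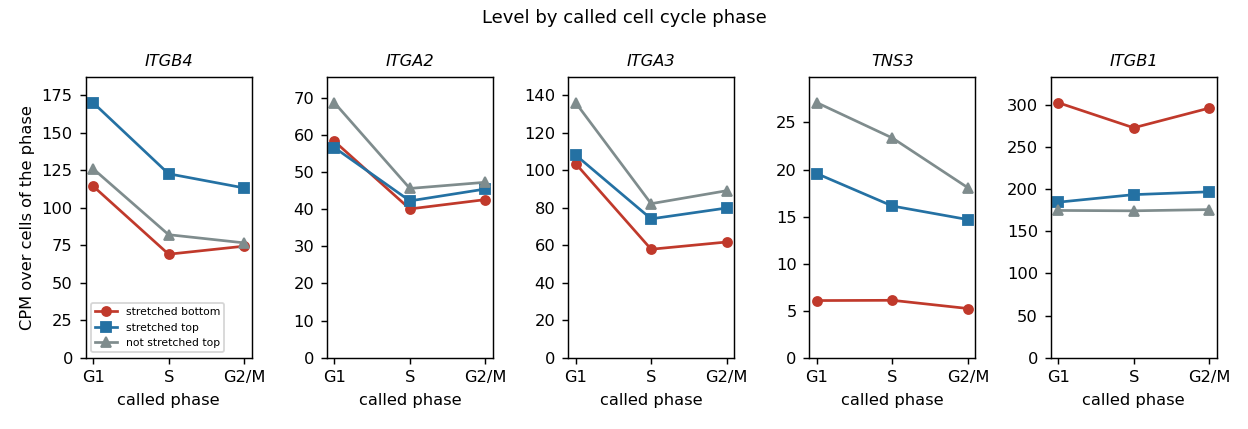
CPM of 5 genes over the cells called G1, S and G2/M in the stretched bottom (circles), stretched top (squares) and not stretched top library (triangles). ITGB4, ITGA2 and ITGA3 were highest in G1 in each library, while ITGB1 lay between 273 and 303 CPM in the stretched bottom library in every phase.

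Depth and mitochondrial share, which differ between the channels, moved with these genes inside the stretched bottom library. In its 199 cells of 10 to 20% mitochondrial UMIs, ITGB1 stood at 458 CPM, against 278 CPM in its 1323 cells under 5%. ITGA3 stood at 205 against 61.1 CPM, VCL at 343 against 105 CPM, ITGB4 at 210 against 70.5 CPM and TNS3 at 17.1 against 4.96 CPM. In this contrast 9 of the 10 genes, all but ZYX, were at least 1.5-fold higher, beside 51.3% of all genes. The 10 genes had a median log2 ratio of 1.51 and all genes of 0.62. The same contrast gave 1 of 10 in the stretched top library (5.08% of genes), TNS3, and 4 of 10 in the not stretched top library (8.7%), ITGA2, ITGA3, TNS3 and VCL. Depth gave a like pattern: in stretched bottom cells of 5000 to 20000 UMIs, 8 of the 10 genes were at least 1.5-fold higher than in those over 20000 UMIs, beside 43.3% of all genes. The same contrast gave 0 of 10 in the stretched top (0.0114% of genes) and 0 of 10 in the not stretched top library (0.162%).

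**Figure D5:**
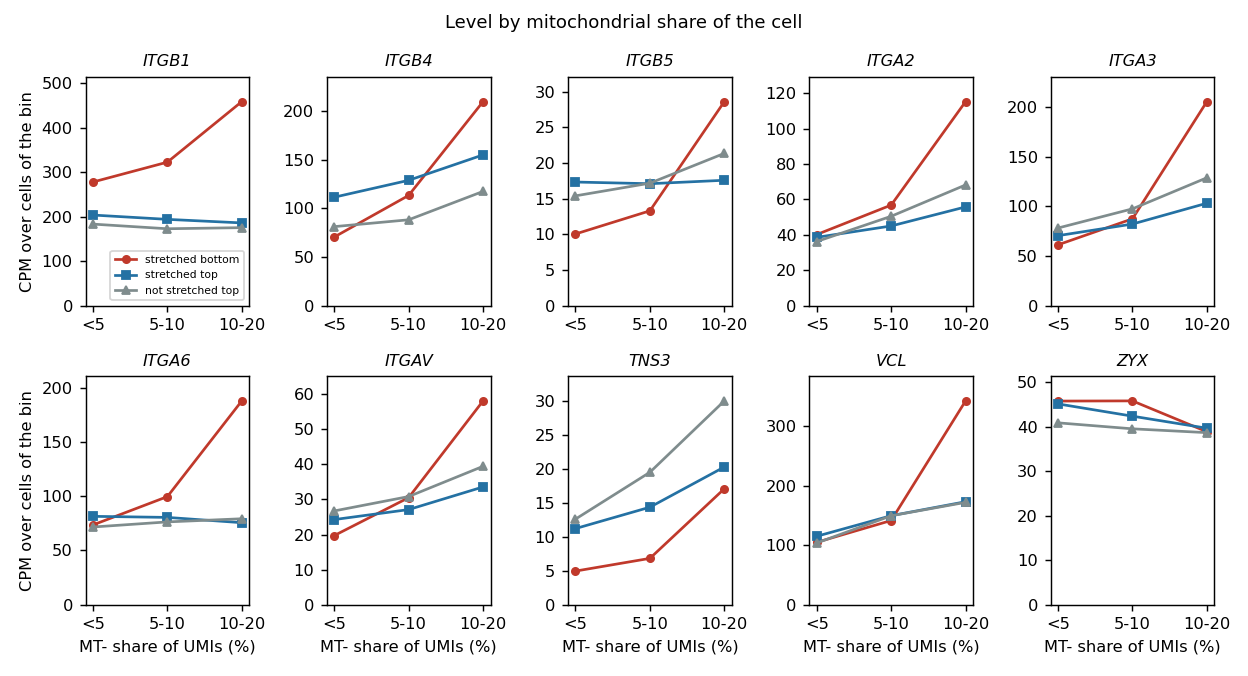
CPM of each gene over cells with under 5%, 5 to 10% and 10 to 20% of UMIs from mitochondrially encoded genes, in the stretched bottom (circles), stretched top (squares) and not stretched top library (triangles). In the stretched bottom library ITGA3 stands at 61.1 CPM in the lowest bin and 205 CPM in the highest, and in the highest bin 8 of the 10 genes lie above the stretched top library.

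Stretched bottom against stretched top therefore varied with the cells that were set side by side. Among cells under 5% mitochondrial UMIs (1323 against 1711 cells) the log2 ratios were 0.45 for ITGB1, −0.65 for ITGB4, −0.73 for ITGB5 and −1.04 for TNS3, with −0.10 for the median gene. Among cells of 10 to 20% (199 against 10954 cells) they were 1.30, 0.43, 0.67 and −0.24, with 0.52 for the median gene. Among cells of 20000 to 40000 UMIs (400 against 1462 cells) they were 0.71, −0.29, −0.30 and −1.59, with 0.02 for the median gene. Among cells of 10000 to 20000 UMIs (156 against 7620 cells) they were 1.13, 0.33, 0.42 and 0.17, with 0.40 for the median gene. ITGB1 was thus higher in the stretched bottom library in each of these bins, and also among cells of 5000 to 10000 UMIs (87 against 8088 cells, 0.49), but not among cells of 1000 to 5000 UMIs (314 against 2939 cells, −0.31). ITGB4 and ITGB5 changed sign between bins. TNS3 was lower in 3 of 3 mitochondrial bins and in 3 of 4 depth bins, though the stretched bottom bins under 20000 UMIs held between 5 and 43 TNS3 UMIs. Among cells of 10000 to 20000 UMIs TNS3 was 1.13-fold higher (0.818 to 1.54), an interval that leaves out the pooled 3.01-fold decrease. Among cells of 10 to 20% mitochondrial UMIs it was 1.19-fold lower (0.869 to 1.67), which leaves it out as well. Only 12 stretched top cells exceeded 40000 UMIs, so the bin that held 994 of the stretched bottom cells gave no ratio. The part of depth and mitochondrial share in the pooled values was not tested. The stretched top against not stretched top values of ITGB4, between 0.24 and 0.57 on the log2 scale, were above 0 in all 4 depth bins.

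The other genes of the adhesion machinery were read from 10 lists of 172 genes. Of 113 measured genes, 7 passed 1.5-fold upward and 14 downward in stretched bottom against stretched top, together 18.6%, beside 18.9% of all genes. In stretched top against not stretched top 0 of 118 passed 1.5-fold in either direction. Of 19 other integrin subunit genes, ITGA5 and ITGAE reached 10 CPM. The fibronectin-receptor chain ITGA5 stood at 11.5 CPM in the stretched bottom, 13.5 CPM in the stretched top and 16.4 CPM in the not stretched top library, and ITGAE, the E-cadherin-binding chain, at 101, 77.1 and 83.5 CPM.

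Of 13 measured integrin activators and inhibitors, 1 was higher and 1 lower. ITGB1BP1, which encodes an inhibitor that binds the beta-1 tail, stood at 94.3 CPM in the stretched bottom and 60.6 CPM in the stretched top library, 1.56-fold higher (1.51 to 1.60). It passed in 10 of 16 alternatives, with a log2 ratio of 0.26 in cells of at most 5% mitochondrial UMIs. RASGRP2, a RAP1 exchange factor gene, was 1.99-fold lower (1.78 to 2.22). The talin and kindlin genes TLN1 and FERMT1 stood at 39.9 against 49.0 CPM and 32.4 against 34.6 CPM. Among 21 kinases and signalling adaptors 1 passed, the pseudokinase gene PEAK1 at 1.61-fold lower, while PTK2, which encodes focal adhesion kinase, stood at 210 against 225 CPM and the paxillin gene PXN at 42.0 against 35.7 CPM. Of 20 actin-linking genes 1 was higher, the LIM protein gene CSRP1 (1.68-fold), and 3 were lower: the ENA/VASP gene EVL (2.26-fold) and the LIM protein genes LPP (1.61-fold) and PDLIM5 (1.59-fold). Hemidesmosome genes other than ITGB4 and ITGA6 had 0 of 6 members past 1.5-fold: PLEC, the plectin gene, stood at 104 against 80.4 CPM, DST, the dystonin gene, at 276 against 364 CPM and CD151, a tetraspanin gene, at 240 against 176 CPM.

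The largest of the 7 increases was in a membrane partner of integrins. SLC3A2, the heavy chain of the amino acid transporter CD98 that binds beta integrin tails, stood at 344 CPM in the stretched bottom and 147 CPM in the stretched top library, 2.35-fold higher (2.31 to 2.39). CAV2, the caveolin-2 gene, was 1.59-fold higher. The tetraspanin gene CD81 stood at 168 against 368 CPM, 2.19-fold lower (2.15 to 2.23), EGFR was 1.62-fold lower, and CD44, outside the naming rule and named after its value was seen, stood at 293 against 465 CPM. Of 9 measured ligand genes 4 were lower and 0 higher, beside 11% and 7.93% of all genes. LAMB1 and LAMB2, laminin beta chains, were 2.12-fold and 1.73-fold lower. Fibronectin (FN1) stood at 5.14 against 38.9 CPM and vitronectin (VTN) at 1 UMI against 12.1 CPM, but both values depended on a few cells. By GENCODE 29, 32.9% of the last 1000 exonic bases of VTN were shared with another gene, AC002094.3. Without the APOA1-high class the log2 ratio of FN1 was 0.29 and that of VTN −0.57. Without the cells that held endothelial marker UMIs, 51 of them in the stretched bottom library, the log2 ratio of FN1 was −3.70, against −2.70 with all cells. In the trafficking list 1 of 13 genes passed, the recycling adaptor gene RAB11FIP1 (1.59-fold lower), and of 2 measured tensin-list genes 0 did. Of 14 SRF and MRTF target genes, 3 were higher, ACTB (1.54-fold), TPM4 (1.58-fold) and the secreted integrin ligand gene CYR61 (1.55-fold), beside 7.93% of all genes, and the caldesmon gene CALD1 was 1.60-fold lower. TPM4 and CYR61 passed in 12 of 16 alternatives and ACTB in 11, with a log2 ratio of 0.14 for ACTB in cells of at most 5% mitochondrial UMIs. Of the list genes named as past 1.5-fold by the naming rule, SLC3A2, CD81, EVL, LAMB1 and CALD1 passed in 16 of 16 alternatives and the others in 10 to 15. PDLIM5 and LAMB2 passed in 10, LPP in 11, and PEAK1, EGFR and CAV2 in 12.

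Genes whose pattern over the 3 libraries lay closest to that of a member were named by Euclidean distance in the 2 log2 ratios among 7977 genes over 10 CPM in every library. For TNS3 these were ELF3 (24.9, 72.3 and 92.5 CPM in the stretched bottom, stretched top and not stretched top library), DBP (12.9, 34.7 and 48.7 CPM) and SHANK2 (12.2, 34.0 and 42.8 CPM). For ITGB4 they were KLK6 (13.9, 23.95 and 16.4 CPM), ADAM19 (27.7, 51.2 and 36.0 CPM) and VSNL1 (65.3, 109 and 83.6 CPM). For ITGB1 they were SPCS3, SAR1B and CYCS, and for ITGB5 they were GOLPH3, IRF2BP2 and DARS. With 3 libraries this likeness is a description only.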

How the data were processed

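The authors deposited raw UMI counts per gene and barcode for 3 droplet 3′ libraries (target 10000 droplets, 12 PCR cycles, per the labels' protocols), made with Cell Ranger 7.0.0 per the file headers and build hg38 per the submitters' processing notes. Its annotation version is not given in the sources used here. Barcodes were kept with at least 500 genes, 1000 UMIs and at most 20% mitochondrial UMIs, which left out 44.5% (stretched bottom), 20.1% (stretched top) and 34.1% (not stretched top). The kept cells held 76641034, 210814252 and 212503735 UMIs in that order. Doublets were not removed, and more cells were kept than the droplet target in both top libraries.

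UMIs summed over kept cells gave CPM. Differences are log2 ratios with 1 CPM added, called at 1.5-fold for genes of at least 10 CPM in either library. Fold intervals are exact conditional binomial ones. A count of 0 allows up to 3 counts: 0.0391 CPM in the stretched bottom and at most 0.0142 CPM in both top libraries. Phases were called with scanpy 1.11.5 on cells thinned to 3000 UMIs, and TMM scaling used edgeR 4.0.16 (R 4.3.3). Other steps used Python 3.11.15, numpy 2.4.6, scipy 1.17.1, pandas 2.3.3 and matplotlib 3.10.9.

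The 10 genes and all lists were chosen with earlier results of these data known. Beyond the 10, the genes named were up to 4 per list with the largest log2 ratio past 1.5-fold, the 3 nearest genes of each called gene, EPCAM and the top marker of each other cell type. Further list genes (TLN1, FERMT1, PTK2, PXN, PLEC, DST, CD151, ITGA5, ITGAE) and CD44 were named after their values were seen. CCN1 was matched as CYR61. The script was tested on simulated data for stretched bottom against stretched top (8633 genes): it called 70 of 70 genes simulated at 2-fold, and 192 of 200 intervals held the true fold. The intervals held it for 187 of 200 in stretched top against not stretched top (8932 genes) and for 190 of 200 in stretched bottom against not stretched top (8976 genes). The simulated counts were Poisson draws, the model that the intervals assume. The test therefore checks the code only, and not the spread between cells or libraries.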

Additional observations from a re-analysis of the deposited data

How the results depend on the processing

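Of 480 log2 ratios of the 10 genes under alternative processing (3 comparisons, 16 alternatives), 270 stayed within their counting interval, 210 moved out of it, and 0 of the called values changed sign. The exception among other named genes was FN1 in stretched bottom against stretched top, at 0.29 without the APOA1-high class. No paired analysis was possible because each group had 1 library, and for the same reason no library could be left out. The 2 alternatives that left out cells with endothelial marker UMIs and barcodes listed by more than 1 library were chosen after the data were seen. No group has a replicate, the bottom library is small and deep, and only counting error is covered. The causes of the shifts listed next were not tested.

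In stretched bottom against stretched top, the 1 of the 10 genes past 1.5-fold higher became 0 under the stricter cell filter, with mitochondrial and ribosomal protein genes left out of the totals, under equal cell weights, in cells of at most 5% mitochondrial UMIs and at a 2-fold threshold. The 3 lower became 1 under equal cell weights, cells of 10000 to 60000 UMIs, a minimum of 50 CPM and a 2-fold threshold. Over all genes the main count of 703 higher became 352 under the stricter filter, 359 without mitochondrial and ribosomal totals, 434 at 10000 to 60000 UMIs, 256 at 5% mitochondrial UMIs, 436 at 50 CPM and 113 at 2-fold. The 977 lower became 1842 at a minimum of 1 CPM, 230 at 50 CPM and 300 at 2-fold. For the 10 adhesion lists the 7 higher became 3 under the stricter filter, 2 without mitochondrial and ribosomal totals and at 5% mitochondrial UMIs, 15 at 1 CPM and 1 at 2-fold. The 14 lower became 7 under equal cell weights and at 10000 to 60000 UMIs, 9 for thinned cells and at 5% mitochondrial UMIs, 22 at 1 CPM, 6 at 50 CPM and 5 at 2-fold. Genes of the 10 with a higher share of positive cells numbered 3, and 10 without thinning.

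In stretched top against not stretched top, 1 of the 10 genes (ITGB4) was past 1.5-fold higher under TMM and median of ratios scaling, against 0 otherwise. All genes past 1.5-fold higher, 16 in the main count, became 70 under TMM, 76 under median of ratios, 10 with 5 CPM added, 26 at a minimum of 1 CPM, 7 at 50 CPM and 0 at 2-fold. The 54 lower became 10 under both scalings, 29 without mitochondrial and ribosomal totals, 89 at 5% mitochondrial UMIs, 83 with 0.1 CPM added, 18 with 5 CPM added, 123 at 1 CPM, 14 at 50 CPM and 6 at 2-fold. In the adhesion lists the 0 higher became 1 at 5% mitochondrial UMIs. The 0 lower became 1 under the stricter filter, without the APOA1-high class, without shared barcodes and at 1 CPM, and 2 at 10000 to 60000 UMIs, at 5% mitochondrial UMIs and with 0.1 CPM added. Genes of the 10 with a higher share of positive cells numbered 5, and 1 without thinning.

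In stretched bottom against not stretched top, the 1 of the 10 genes past 1.5-fold higher became 0 at 2-fold. The 3 lower became 1 under TMM, median of ratios, equal cell weights, thinning, 10000 to 60000 UMIs, 5% mitochondrial UMIs, 50 CPM and 2-fold. The 627 genes higher became 387 under the stricter filter, 1355 under TMM, 1555 under median of ratios, 284 at 5% mitochondrial UMIs and 149 at 2-fold. The 1910 lower became 1020 under TMM, 914 under median of ratios, 3303 at 1 CPM, 445 at 50 CPM and 613 at 2-fold.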

Other observations

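Among integrin genes under 10 CPM in every library, ITGB8 stood at 1.92 CPM in the stretched bottom, 4.48 CPM in the stretched top and 4.53 CPM in the not stretched top library. ITGA11, a collagen-receptor chain known from fibroblasts, had 149 UMIs (1.94 CPM) in the stretched bottom, 38 UMIs (0.180 CPM) in the stretched top and 25 UMIs (0.118 CPM) in the not stretched top library. ITGAL, a leukocyte integrin chain, had 112, 44 and 51 UMIs in the same order, out of 76641034, 210814252 and 212503735 UMIs. The marker lists of those cell types went the other way. Fibroblast markers summed to 9.72, 13.1 and 16.2 CPM, and leukocyte markers to 5.47, 6.43 and 7.38 CPM, in the same order. The number of cells that held these UMIs is not given here. ITGB8, ITGA11 and ITGAL were named after their values were seen.

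In the stretched bottom library 51 cells (2.61%) held at least 2 UMIs of endothelial markers other than EGFL7, against 62 cells (0.308%) in the stretched top and 104 cells (0.604%) in the not stretched top library. Their median depth was 54896 UMIs in the stretched bottom, 13403 in stretched top and 17152 in not stretched top cells. Leaving them out kept ITGB1, ITGB4, ITGB5 and TNS3 past 1.5-fold in stretched bottom against stretched top. It moved the log2 ratio of FN1 to −3.70, against −2.70 with all cells. The adhesion-list genes past 1.5-fold higher numbered 6 without these cells, against 7 with them, and CYR61 fell short.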
